A study of Mus musculus with 75 samples.

Results

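The genes described here carry cells through mitosis: 60 genes chosen by name for their known roles as regulators of mitotic entry, checkpoint proteins, mediators of mitotic exit, kinetochore proteins, chromosomal passengers, mitotic kinesins, spindle and cytokinesis proteins, and chromosome proteins. The choice was made with earlier results of these data known, so the counts below describe this set. Of the 60 genes, 58 were measured among 21552 genes, and Ccnb1 and Cks2 were not analysed here because no probe set carried their symbols. They were followed on 75 one-colour arrays, 1 per sample, of medulloblastoma allografts. Medulloblastoma is a tumour of the cerebellum, and these tumours came from Ptch1+/- mice, which lack 1 copy of the gene for the receptor that holds the hedgehog pathway off. All groups, vehicle included, were grown in nude CD1 mice, hosts that lack a thymus and most T cells but keep macrophages, fibroblasts and blood vessels. Tumour bearers received MK4101, an inhibitor of the hedgehog (SHH) pathway, or vehicle. A single dose (QD) of vehicle, 40 mpk or 80 mpk was followed for 1, 6, 12, 24 or 36 h, and multiple doses (BID) of vehicle or 80 mpk were followed for 24 or 36 h. This gave 19 groups of 3 to 5 arrays, except that 80 mpk in multiple doses at 24 h had 1 array and was not tested. The labels give the multiple schedule only as BID, without the number of doses or their times, so the time since its last dose is not known. They also do not give the number of founder tumours or whether each array stands for a separate mouse. The p-values thus measure the spread between these samples, which may be technical.

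Mitosis begins when the kinase Cdk1, bound to a cyclin A or B subunit, becomes active. The spindle, built from microtubules and moved by kinesins, then captures each chromosome at its kinetochore, and the checkpoint kinases and Mad and Bub proteins hold back the Cdc20-driven ubiquitin ligase APC/C until every kinetochore is attached. Transcripts of most of these proteins peak in G2 and M phase. The MuvB complex with B-Myb (Mybl2) and Foxm1 activates such genes, and with pocket proteins it represses them in resting cells through a promoter element called CHR. In granule neuron progenitors, the cells from which hedgehog-driven medulloblastoma arises, hedgehog signalling drives division.

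Values are the deposited intensities, which had a mean of 1 on every array and are called scaled intensities here. The scaling step is not described. Differences from vehicle are given on the log2 scale, as the difference ± its standard error from limma (negative where treated arrays were lower). A gene was called where its Benjamini-Hochberg adjusted p, with every one of the 21552 genes in the adjustment, was under 0.05. No filter on low values was applied, so all 58 genes were tested. The hedgehog target Gli1 was lower than vehicle with 80 mpk, with log2 differences of -3.997 at 6 h, -4.48 at 12 h and -3.19 at 24 h. At 36 h its difference was 0.05 (adjusted p = 0.936). Of 12 markers of granule neuron progenitors, Atoh1 and Zic1 had the highest mean levels, at percentiles 99.3 and 99.6 of all genes. Lhx9 and Zic2 had the lowest, at percentiles 24.8 and 43.9. On 23 of the 75 arrays the mean log2 of 12 skeletal muscle genes was above 0, and only 3 of the 19 groups had no such array. Results that change without them are given both ways.

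Over all 58 genes, the single dose left a trough at 24 h. The mean log2 intensity of the 58 genes was 1.55, 1.69, 1.73, 1.71 and 1.74 on the 5 vehicle arrays at 24 h. It was 0.81, 0.66, 0.51 and 0.57 on the 4 arrays with 40 mpk and 0.03, 0.16, 0.46 and -0.02 on the 4 arrays with 80 mpk. Neither treated group overlapped with vehicle, and the treated groups did not overlap with each other. At 36 h the vehicle arrays had means of 1.75, 1.58 and 1.68, the 3 arrays with 40 mpk had 1.62, 1.54 and 1.62, and the 4 arrays with 80 mpk had 0.79, 1.53, 1.31 and 1.18. The 80 mpk arrays at 36 h were thus widely spread, and all 4 were below the lowest vehicle array. Multiple doses left the mean at -0.85, -0.09, -0.33 and -0.22 at 36 h, against 1.65, 1.77, 1.65, 1.86 and 1.72 with vehicle. These are bulk tumours, in which fewer dividing cells and less RNA of these genes per cell cannot be told apart.

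**Figure D1:**
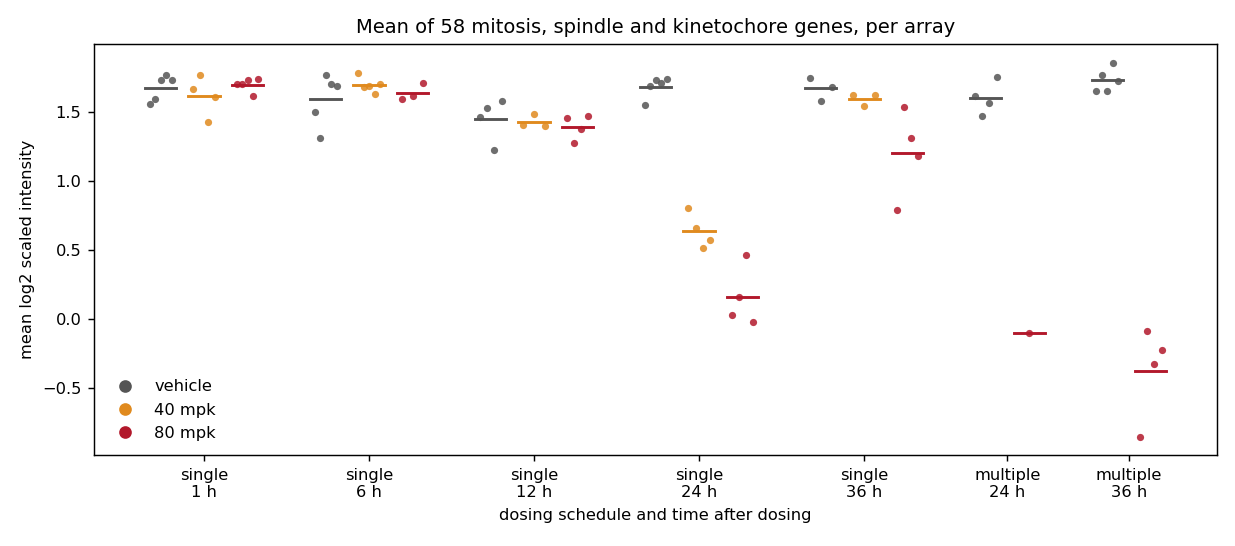
Mean log2 scaled intensity of the 58 genes on each array (points) with group means (bars), by dosing schedule and time after dosing in hours. At 24 h the 4 arrays with 80 mpk range from -0.02 to 0.46 and the 5 vehicle arrays from 1.55 to 1.74.

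Promoters are shown because most of those matched hold a pair of short elements, the CHR and the CCAAT box. RefSeq promoters (GRCm38.p6, 250 bases before to 50 after the transcription start) were matched by symbol for 48 of the 58 genes. The CHR element was searched as TTTGAA or TTCGAA, the CCAAT box as CCAAT, and an E2F site as TTTGGCGC, TTTCGCGC, TTTCCCGC or TTTGCCGC, each on both strands, and a base could belong to matches of more than 1 element. A gene counted as holding an element where the window of any of its starts held it. A CHR was present for 38 of the 48 genes (79.2%) and for 19.2% of 16854 measured genes with a window. A CCAAT box was present in 70.8% against 41.8%, both elements together in 66.7% against 7.84%, and an E2F site in 10.4% against 3.37%. Among 25 replication genes with a window, 5 held a CHR (20%) and 11 an E2F site (44%). These are matches of letters in a window and do not show that a factor binds there. Below are the bases from 100 before to 20 after the start, in lower case with CHR and CCAAT letters on either strand in capitals. Cdk1, Ccnb2, Cdc20, Plk1 and Bub1 are shown as genes of mitotic entry and the checkpoint, and Mybl2 and Cdca5 were added after their values at 12 h had been seen.
Cdk1 (chr10:69352893-69353012, minus strand): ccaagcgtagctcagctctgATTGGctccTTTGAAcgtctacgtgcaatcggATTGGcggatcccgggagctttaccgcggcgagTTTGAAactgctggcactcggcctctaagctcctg
Ccnb2 (chr9:70421535-70421654, minus strand): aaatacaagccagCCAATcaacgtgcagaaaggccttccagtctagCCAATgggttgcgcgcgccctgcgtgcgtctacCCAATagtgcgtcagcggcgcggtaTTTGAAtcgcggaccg
Cdc20 (chr4:118437324-118437443, minus strand): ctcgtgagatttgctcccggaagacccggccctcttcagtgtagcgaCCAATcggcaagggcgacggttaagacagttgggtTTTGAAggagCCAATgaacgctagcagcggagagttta
Plk1 (chr7:122159335-122159454, plus strand): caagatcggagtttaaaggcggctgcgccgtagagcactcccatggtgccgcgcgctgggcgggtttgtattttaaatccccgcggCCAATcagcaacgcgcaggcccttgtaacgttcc
Bub1 (chr2:127831840-127831959, minus strand): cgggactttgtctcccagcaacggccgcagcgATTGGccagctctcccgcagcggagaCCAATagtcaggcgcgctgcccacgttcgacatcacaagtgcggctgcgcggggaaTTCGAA
Mybl2 (chr2:163054535-163054654, plus strand): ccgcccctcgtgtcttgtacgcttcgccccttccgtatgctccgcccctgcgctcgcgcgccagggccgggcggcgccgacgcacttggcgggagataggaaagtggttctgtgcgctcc
Cdca5 (chr19:6084997-6085116, plus strand): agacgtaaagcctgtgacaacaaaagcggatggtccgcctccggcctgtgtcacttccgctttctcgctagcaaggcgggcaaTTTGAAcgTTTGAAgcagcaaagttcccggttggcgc
In the stretch shown, Ccnb2 holds CCAAT boxes that start 87, 54 and 21 bases before the start of transcription, the last followed by a CHR at base 5 after it. Cdc20 holds a CHR that starts 18 bases before the start, and the CHR of Plk1 lies at base 31 after the start, outside the bases shown. Mybl2 holds none of the letter strings searched for the 3 elements in its whole window of 300 bases. E2F sites spelled otherwise were not searched, so this does not show that Mybl2 lacks one. Cdca5 holds a pair of CHR elements and no CCAAT box.

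At 1 and 6 h at most 1 of the genes was called with either dose, although Gli1 was already low at 6 h. At 1 h limma called 0 of 58 genes with either dose (4 with 40 mpk and 1 with 80 mpk had an unadjusted p under 0.05), as it called 0% of all genes. At 6 h with 40 mpk the only gene called was Cenpk, a subunit of the inner kinetochore, with a log2 difference of -0.61 ± 0.14 (adjusted p = 0.00396), where 1.05% of all genes were lower. With the mean of its 3 probe sets its adjusted p was 0.0547, and without vehicle replicate 1 or 2 the count was 2. Mybl2, the B-Myb activator, stood at 0.561, 0.549, 0.733, 0.721 and 0.794 with vehicle, at 0.445, 0.396, 0.503, 0.513 and 0.496 with 40 mpk and at 0.470, 0.443 and 0.515 with 80 mpk. Both treated groups lay below the vehicle range, but neither difference was called (-0.50 ± 0.15, adjusted p = 0.0547, and -0.48 ± 0.17, adjusted p = 0.168). With 80 mpk at 6 h limma called 0 of 58 genes, with 3 at an unadjusted p under 0.05, and it called 3 with array weights and 1 without vehicle replicate 2, and 1.18% of all genes were lower.

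At 12 h with 80 mpk the shares of the 58 genes called were close to the shares of all genes, and Mybl2 had the largest difference of the 58. Of the 58 genes 4 were lower, where 5.99% of all genes were, and 2 were higher, where 3.85% of all genes were. Mybl2 was at 0.588, 0.663, 0.558 and 0.744 with vehicle, 0.300, 0.351 and 0.368 with 40 mpk and 0.233, 0.206, 0.201 and 0.324 with 80 mpk. Neither treated group overlapped with vehicle, with differences of -0.91 ± 0.18 (adjusted p = 2.14e-04) and -1.42 ± 0.16 (adjusted p = 7.23e-10). The other lower genes with 80 mpk were Smc2, the core subunit of condensin, at -0.51 ± 0.11, Cdca5 (sororin, which protects sister cohesion), at -0.51 ± 0.12, and Incenp, the scaffold of the passenger complex, at -0.40 ± 0.11. Cdkn3, a phosphatase of Cdk kinases, was at 0.846, 0.978, 0.659 and 0.941 with vehicle and 1.20, 1.17, 1.36 and 1.44 with 80 mpk, and rose by 0.60 ± 0.14 (adjusted p = 0.00139). Cyclin B2 (Ccnb2), a Cdk1 partner, was at 5.05, 5.20, 3.82 and 5.01 with vehicle and at 6.86, 6.20, 6.72 and 6.06 with 80 mpk, a rise of 0.45 ± 0.14 (adjusted p = 0.0243). All 4 treated arrays were above all 4 vehicle arrays for both genes. For both, the vehicle mean at 12 h was the lowest of all vehicle groups (0.846 for Cdkn3 and 4.73 for Ccnb2). The highest vehicle means, at 24 h after a single dose, were 1.15 and 5.92, below the treated means of 1.29 and 6.45. The Ccnb2 call was lost without vehicle replicate 3 (adjusted p = 0.166) or treated replicate 1 (0.0762) or 3 (0.0697), and the Incenp call without vehicle replicate 4 (0.100) or treated replicate 2 (0.0880) or 3 (0.0558).

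Foxm1, the forkhead activator of G2 and M genes, was not called at 12 h. It was at 6.81, 7.35, 6.21 and 9.42 with vehicle and 6.07, 4.45, 5.10 and 6.99 with 80 mpk, groups that overlapped, with a difference of -0.40 ± 0.16 (adjusted p = 0.108, 0.0402 without treated replicate 4 and 0.00996 with array weights). Cdk1 was at 17.99, 19.6, 16.1 and 20.1 with vehicle and at 17.8, 16.5, 17.6 and 17.4 with 80 mpk, and its difference was -0.09 ± 0.11. With 40 mpk at 12 h, 3 of 58 genes were lower, Mybl2, Cenpk (-0.95 ± 0.16) and Smc2 (-0.63 ± 0.12), where 2.59% of all genes were, and the count was 10 with array weights. The median difference over the 58 genes at 12 h was 0.01 with 40 mpk and -0.05 with 80 mpk. The vehicle group at 12 h had the lowest mean log2 over the 58 genes of all vehicle groups. It was at 1.45, against 1.59 to 1.73 in the others, and the treated groups at 12 h were at 1.43 with 40 mpk and 1.39 with 80 mpk. With 80 mpk at 12 h, 28 of 33 replication genes were lower, with a median of -0.56, where 5.99% of all genes were lower. The smallest adjusted p among them was for Mcm4, a helicase subunit (-1.15), and Ccne2, a cyclin of S-phase entry (-1.77).

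**Figure D2:**
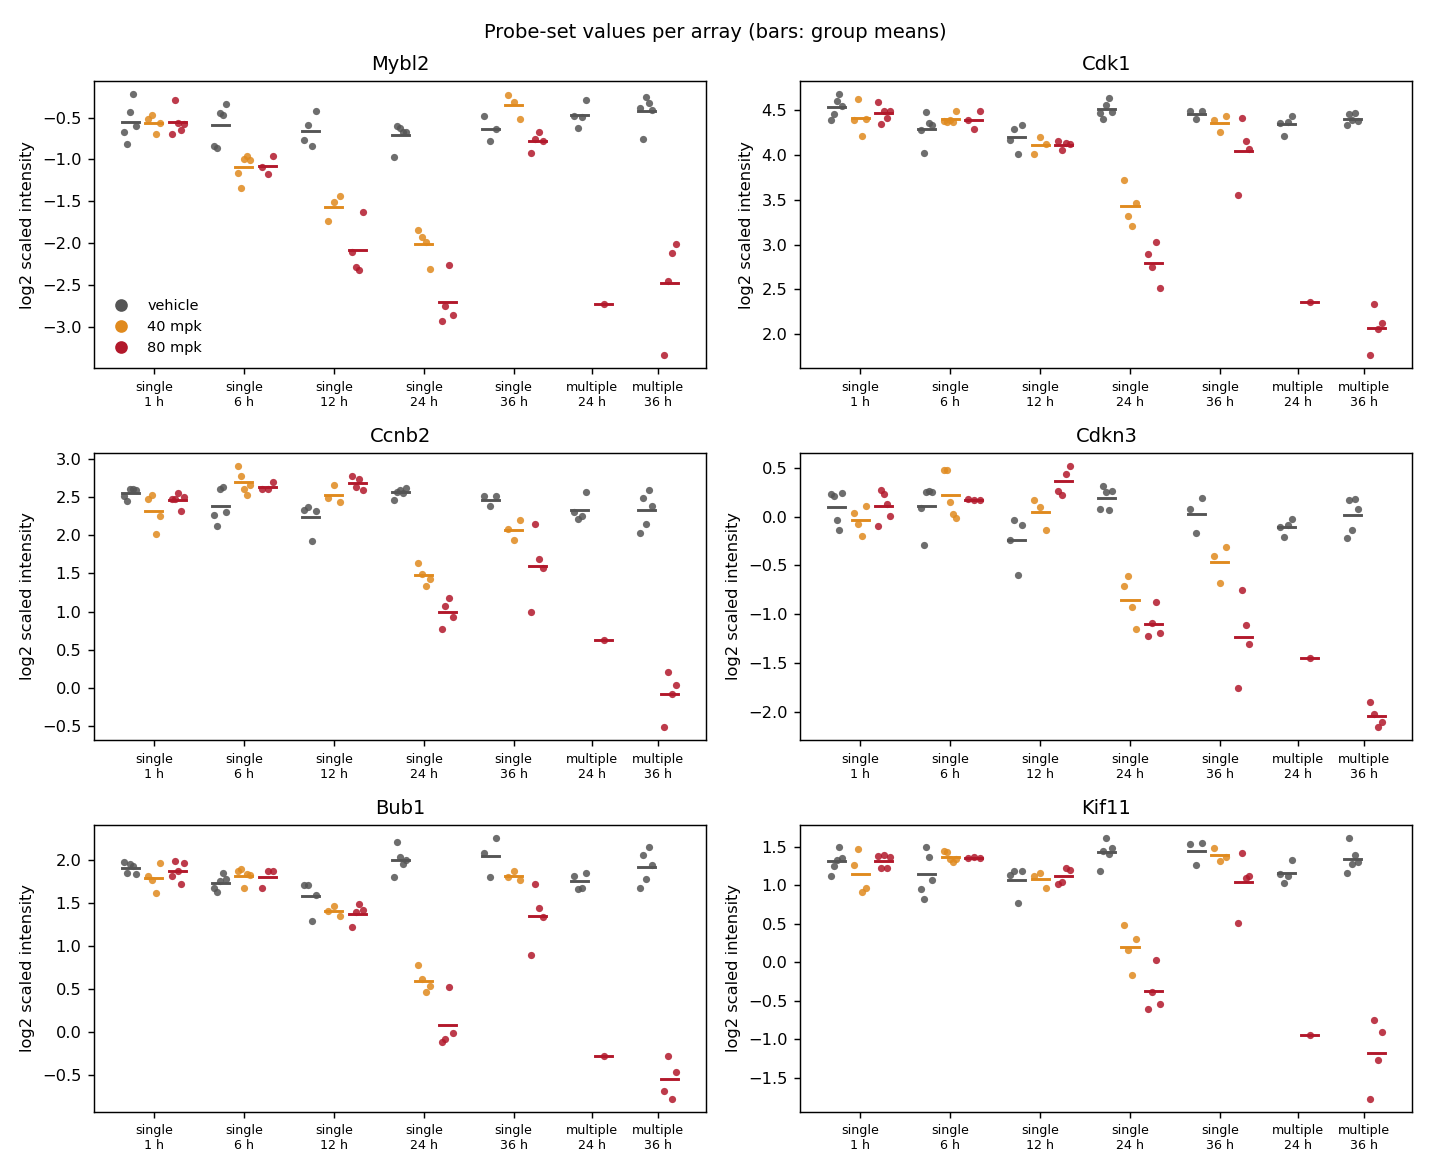
Log2 scaled intensity of Mybl2, Cdk1, Ccnb2, Cdkn3, Bub1 and Kif11 on each array (points) with group means (bars), by schedule and hours after dosing. Mybl2 is below the vehicle range at 6 and 12 h, Ccnb2 and Cdkn3 are above it at 12 h with 80 mpk, and all 6 genes are below it at 24 h.

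At 24 h nearly the whole set was lower with both doses. With 80 mpk, 56 of 58 genes were lower and 0 higher, where 15.3% of all genes were lower and 17.6% higher. With 40 mpk, 55 were lower and 0 higher, where 12.1% of all genes were lower and 14.5% higher. The median difference was -1.61 with 80 mpk and -1.08 with 40 mpk, while the median of all genes was -0.02 and -0.01. The median gene was left at 32.8% of its vehicle level with 80 mpk and at 47.4% with 40 mpk, and 54 of the 58 genes were at least 2-fold lower with 80 mpk. The groups did not overlap for 55 genes with 80 mpk, as they did not for 14.3% of all genes on the lower side. The comparisons of both doses share their 5 vehicle arrays. The genes not called were Pttg1 (securin, which restrains separase), at -0.09, Kif20a, a kinesin of cytokinesis, at -0.29, and, with 40 mpk only, Birc5 (survivin), at -0.44 against -0.51 with 80 mpk (adjusted p = 0.0321). These 3 probe sets were the dimmest of the 58, with mean intensities of 0.0748, 0.147 and 0.0783, while the median probe set of an array was at 0.109 to 0.131.

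The entry regulators fell in all 9 measured members with both doses, with a median of -1.69 for 80 mpk. Cdk1 was at 22.01, 21.1, 23.5, 24.8 and 22.3 with vehicle, 13.1, 9.96, 9.21 and 11.1 with 40 mpk and 7.43, 6.72, 8.14 and 5.73 with 80 mpk. The 3 groups did not overlap, and Cdk1 was 3.27-fold lower with 80 mpk (-1.71 ± 0.10, adjusted p = 1.19e-20). Foxm1 was at 6.82, 7.66, 7.39, 7.55 and 8.01 with vehicle, 3.68, 3.70, 2.83 and 2.90 with 40 mpk and 1.68, 2.17, 2.92 and 1.83 with 80 mpk. Foxm1, which had overlapped with vehicle at 12 h, was now below the vehicle range on every treated array (-1.83 ± 0.15 with 80 mpk). Mybl2 was at 0.510, 0.660, 0.649, 0.626 and 0.628 with vehicle, 0.280, 0.264, 0.253 and 0.203 with 40 mpk and 0.132, 0.149, 0.210 and 0.138 with 80 mpk, again without overlap with vehicle, and with a difference of -1.99 ± 0.15 for 80 mpk. Among the others, cyclin A2 (Ccna2) was lower, at -1.59 ± 0.11, the polo-like kinase Plk1 at -1.74 ± 0.13, and the Cdk1-activating phosphatases Cdc25c and Cdc25b at -1.69 ± 0.15 and -1.44 ± 0.13. Cdkn3, higher at 12 h, was lower, at -1.29 ± 0.13, the smallest difference of the class.

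All 5 spindle checkpoint genes fell with both doses. Bub1, a kinetochore kinase that recruits the checkpoint proteins, was at 3.48, 4.60, 4.10, 3.88 and 3.99 with vehicle, 1.72, 1.53, 1.37 and 1.44 with 40 mpk and 0.918, 0.946, 1.44 and 0.991 with 80 mpk. Every 80 mpk array was below every vehicle array, and Bub1 was 3.79-fold lower (-1.92 ± 0.11, adjusted p = 4.04e-21). The checkpoint kinase Ttk was lower, at -1.70 ± 0.12 and Bub1b (BubR1) at -1.43 ± 0.11. Mad2l1 was lower, at -1.72 ± 0.34 (adjusted p = 3.44e-05), with the widest error of the class. Bub3, a checkpoint protein that binds Bub1 and BubR1, was lower, at -0.89 ± 0.13 and was the only checkpoint gene under a 2-fold difference.

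Of the 6 genes grouped with APC/C and mitotic exit, 5 fell with both doses and Pttg1 was not called. Cdc20, the activator of APC/C, was at 13.1, 13.2, 14.6, 14.8 and 16.04 with vehicle, 8.01, 6.94, 6.25 and 6.71 with 40 mpk and 4.67, 4.99, 5.70 and 4.28 with 80 mpk, and the 3 groups did not overlap. Its difference was -1.55 ± 0.13 with 80 mpk. Ube2c, the ubiquitin-conjugating enzyme of APC/C, was lower, at -1.56 ± 0.11, Cdca5 at -1.65 ± 0.11, Cdca3, an APC/C substrate that is known as a trigger of mitotic entry, at -1.68 ± 0.13, and separase (Espl1), which cleaves cohesin, at -1.37 ± 0.13.

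All 9 kinetochore genes fell with both doses, with a median of -1.56 for 80 mpk. Ndc80, Nuf2, Spc24 and Spc25 make up the complex that holds microtubule ends. Ndc80 was at 1.42, 1.68, 1.72, 1.82 and 1.52 with vehicle, 0.857, 0.570, 0.592 and 0.717 with 40 mpk and 0.424, 0.380, 0.543 and 0.353 with 80 mpk. The groups did not overlap, and the differences with 80 mpk were -1.96 ± 0.14 for Ndc80, -1.86 ± 0.12 for Spc24, -1.80 ± 0.12 for Nuf2 and -1.52 ± 0.10 for Spc25. The centromeric histone Cenpa was lower, at -1.56 ± 0.13, Cenpn, which reads it, at -1.77 ± 0.11, the kinetochore motor Cenpe at -1.39 ± 0.13, and Cenpf, a protein of the outer kinetochore, at -1.06 ± 0.13.

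The chromosomal passenger complex corrects faulty attachments through its kinase Aurkb. Aurkb was at 2.84, 2.91, 2.99, 2.98 and 3.33 with vehicle, 1.56, 1.20, 1.10 and 1.23 with 40 mpk and 0.938, 0.872, 0.936 and 0.712 with 80 mpk, without overlap, and fell by 1.81 ± 0.14 on the log2 scale with 80 mpk. Borealin (Cdca8) was lower, at -1.82 ± 0.12 and Incenp at -1.30 ± 0.11. The Birc5 call with 80 mpk was lost under several alternatives, among them without vehicle replicate 1 (adjusted p = 0.0576), 4 (0.0525) or 5 (0.0716) and without treated replicate 1 (0.114) or 4 (0.0926).

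Of the 10 mitotic kinesins, 9 fell with both doses. Kif11, the motor that pushes the spindle poles apart, was at 2.27, 2.74, 3.07, 2.66 and 2.79 with vehicle, 1.40, 1.12, 0.895 and 1.24 with 40 mpk and 0.659, 0.766, 1.02 and 0.684 with 80 mpk. No treated array reached the vehicle range, and Kif11 was 3.499-fold lower with 80 mpk (-1.81 ± 0.14). The others ran from -1.81 for Kif18a, a motor that dampens chromosome movements, to -1.24 for Kif23, a subunit of centralspindlin. Kif15, which can take over from Kif11, was lower, at -1.80 ± 0.14, and Kif22, which moves chromosome arms, at -1.72 ± 0.13.

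All 7 spindle and cytokinesis genes and all 8 chromosome genes fell with both doses. Tpx2, which activates the spindle pole kinase Aurka, was at 7.34, 7.94, 8.45, 8.07 and 8.47 with vehicle, 4.36, 4.56, 3.58 and 3.57 with 40 mpk and 2.30, 2.54, 3.75 and 2.53 with 80 mpk. Treated replicate 3 overlapped with the 40 mpk arrays, and all treated arrays were below vehicle (-1.56 ± 0.12 with 80 mpk). Aurka was lower, at -1.64 ± 0.12, the scaffold anillin (Anln) at -1.65 ± 0.12, and Nusap1, a microtubule-bundling protein, at -1.71 ± 0.17. Racgap1, the GTPase regulator of centralspindlin, was lower, at -1.16 ± 0.10, the smallest difference of the class. Topoisomerase II alpha (Top2a), which untangles sister DNA, was at 6.89, 8.16, 8.62, 7.75 and 8.29 with vehicle, 3.88, 3.77, 3.22 and 3.15 with 40 mpk and 1.80, 2.20, 3.49 and 2.18 with 80 mpk. It did not overlap with vehicle and was lower, at -1.76 ± 0.13 with 80 mpk. The condensin subunit Ncapg had the largest difference of the 58 genes with 80 mpk (-2.22 ± 0.22), and its partners Smc2, Ncaph, Ncapd2 and Smc4 were at -1.59, -1.55, -1.25 and -1.12. The proliferation marker Mki67 was lower, at -1.41 ± 0.12.

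Transcripts of host cells moved with the same comparison. With 80 mpk at 24 h, 11 of 13 macrophage markers were higher, and their mean log2 intensity was 2.45 to 3.40 against 1.23 to 2.27 with vehicle. Of the fibroblast markers 9 of 12 were higher (means of 2.77 to 3.46 against 1.69 to 2.76), and of the endothelial markers 8 of 10 (-1.41 to -0.64 against -2.13 to -1.71). Among 12 markers of granule neuron progenitors 6 were higher and 2 lower, where 17.6% of all genes were higher and 15.3% lower. The part of host cells in the lower values of the mitotic genes was not tested, and the arrays hold no value of 0. Muscle genes were high on 2 of the 4 arrays with 80 mpk, 3 of the 4 with 40 mpk and 1 of the 5 with vehicle, and without the muscle-rich arrays 56 genes were lower with 80 mpk, with a median of -1.65, and 54 with 40 mpk.

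**Figure D3:**
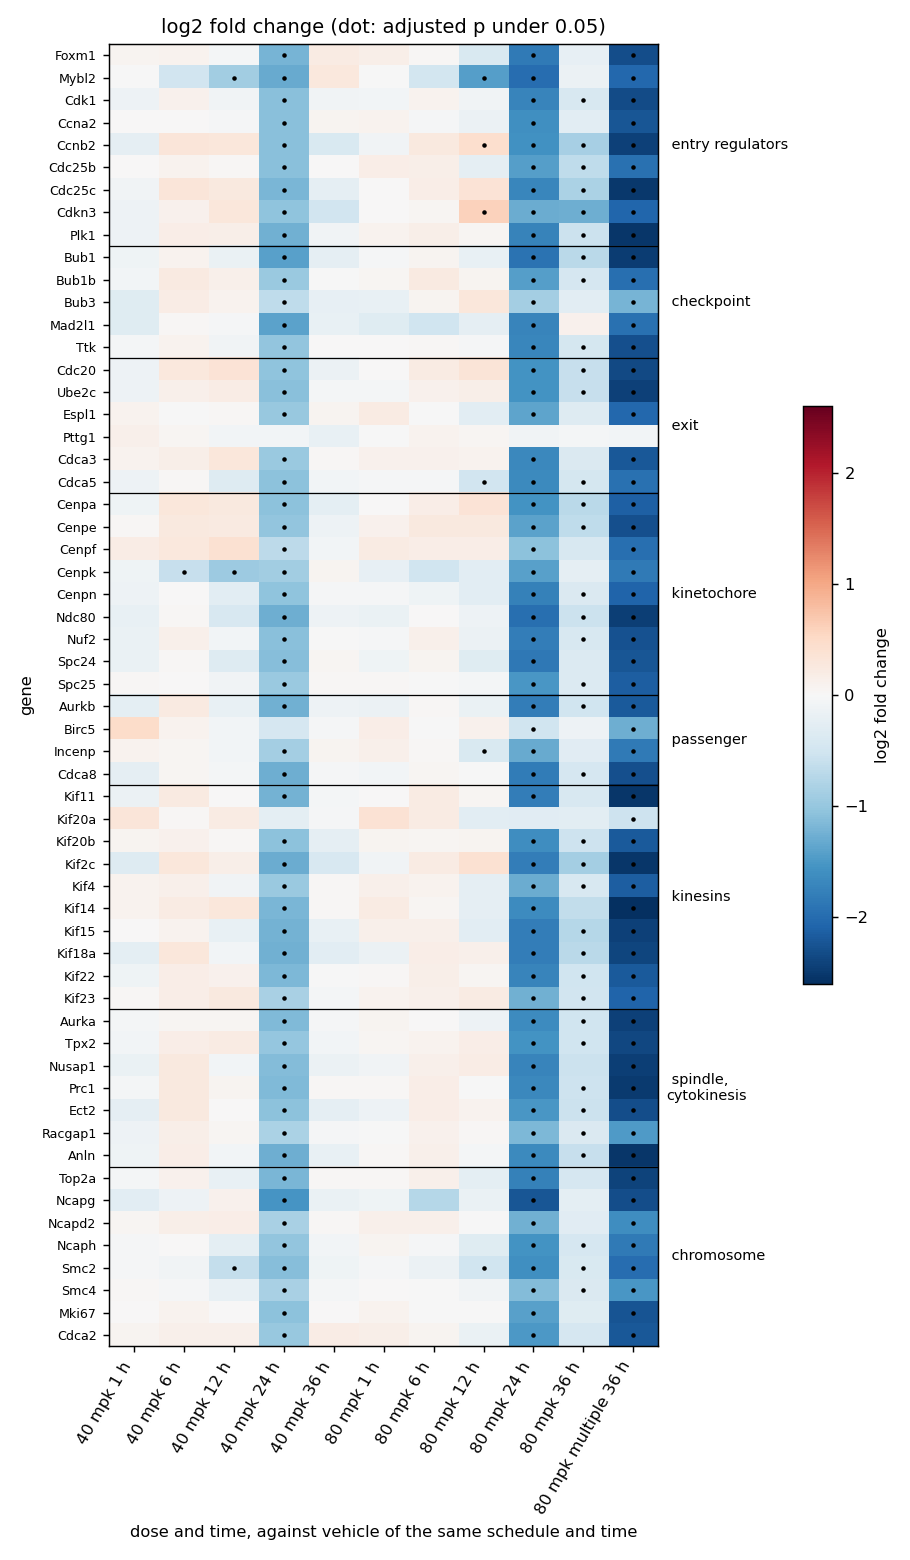
Log2 fold change of each of the 58 genes (lines, grouped by role) against the matching vehicle group, for each dose, schedule and time (columns). Dots mark an adjusted p under 0.05, which 56 genes reach at 24 h with 80 mpk, 36 at 36 h with 80 mpk and 57 at 36 h with multiple doses. Of all genes, 15.3%, 5.64% and 17.7% were called lower in these comparisons.

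The difference between the effect at 24 h and that at 12 h was called for 54 genes with 80 mpk, all lower (median -1.52, where 8.02% of all genes were), and for 51 with 40 mpk (median -1.08, where 2.53% were). Mybl2 was not among them at either dose (-0.56 ± 0.22, adjusted p = 0.0714, with 80 mpk), and it was already lower than vehicle at 12 h. Cdc25c (-2.06 ± 0.22) and Ccnb2 (-2.02 ± 0.19) moved furthest of the entry regulators with 80 mpk.

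The higher dose gave lower values at 24 h for part of the genes. Compared directly, 80 mpk was below 40 mpk for 29 of 58 genes, where 1.2% of all genes were, and above it for 0, and the median difference was -0.51. All 58 differences were below 0. Cenpn (-0.71 ± 0.12, adjusted p = 1.02e-04), Spc24 (-0.76 ± 0.13), Cdk1 (-0.63 ± 0.11), Ttk (-0.68 ± 0.12) and Nuf2 (-0.71 ± 0.13) had the 5 smallest adjusted p-values. Cdkn3 (-0.25 ± 0.14, adjusted p = 0.784) and Cenpe (-0.36 ± 0.14, adjusted p = 0.371) were not called. The count was 0 when only the arrays of these 2 groups were fitted and 2 without the muscle-rich arrays. It was 8 without 40 mpk replicate 1 and 18 without 40 mpk replicate 2, and it was 11, 16 and 12 without 80 mpk replicates 1, 2 and 4.

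At 36 h after a single dose the genes were back near vehicle with 40 mpk and partly low with 80 mpk. With 40 mpk limma called 0 of 58 genes (3 had an unadjusted p under 0.05, and 1 was called with array weights), where 0.39% of all genes were lower, and the median gene was at 96.3% of vehicle. With 80 mpk, 36 were lower and 0 higher, where 5.64% of all genes were lower and 5.22% higher. The median difference was -0.44 and the median gene was at 73.8% of vehicle. The groups did not overlap for 24 genes, against 12.3% of all genes on the lower side. Cdkn3 was at 1.05, 0.891 and 1.14 with vehicle, 0.754, 0.625 and 0.808 with 40 mpk and 0.296, 0.595, 0.465 and 0.404 with 80 mpk. The groups did not overlap, and with 80 mpk it had the largest difference of the 58 genes (-1.26 ± 0.15, adjusted p = 5.22e-09). Ccnb2 was at 5.72, 5.21 and 5.72 with vehicle, 4.23, 3.83 and 4.62 with 40 mpk and 1.99, 4.43, 3.22 and 2.98 with 80 mpk, which did not overlap with vehicle, and was lower, at -0.87 ± 0.15 with 80 mpk. The kinesin Kif2c, a microtubule depolymerase of the centromere, was at -0.88 ± 0.19 and Cdc25c at -0.83 ± 0.18.

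The activators Mybl2 and Foxm1 were not called at 36 h with 80 mpk. Mybl2 was at 0.716, 0.584 and 0.642 with vehicle and 0.528, 0.593, 0.626 and 0.582 with 80 mpk (-0.15 ± 0.18, adjusted p = 0.672). Foxm1 was at 8.77, 7.58 and 7.49 with vehicle and 5.83, 7.77, 7.75 and 6.20 with 80 mpk (-0.21 ± 0.17, adjusted p = 0.496). Both overlapped with vehicle, which does not show that they were equal to it. Cdk1 was at 22.4, 21.2 and 22.4 with vehicle and 11.8, 21.3, 17.8 and 16.7 with 80 mpk, so that 1 of 4 treated arrays lay within the vehicle range, and it was lower, at -0.41 ± 0.12 (adjusted p = 0.0142). Bub1 was lower, at -0.70 ± 0.13, Ube2c at -0.61 ± 0.13, Cenpa at -0.71 ± 0.15, Kif15 at -0.75 ± 0.16 and Anln at -0.59 ± 0.14. In the passenger complex Aurkb was lower, at -0.51 ± 0.16, and of the chromosome genes only Ncaph, Smc2 and Smc4 of 8 were called. Mad2l1 was at 0.11 ± 0.38 and Ncapg at -0.25 ± 0.25, neither called.

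The count at 36 h with 80 mpk depended on single arrays. Treated replicate 1 had a mean log2 of 0.79 over the 58 genes against 1.18 to 1.53 on the others, and it was the only muscle-rich array of its group. Without it 11 genes were lower, with a median of -0.31. Without vehicle replicate 1 the count was 17, without vehicle replicate 3 it was 21, without all muscle-rich arrays 16, with the muscle and fibroblast means as covariates 22, and with only the arrays of these 2 groups in the fit 1, which was Cdkn3. Macrophage markers were higher for 11 of 13 in the same comparison (means of 2.26 to 2.56 against 0.45 to 2.02), and their part was not tested.

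Between 24 and 36 h the effect shrank for most genes. With 80 mpk, 53 of 58 genes were higher against vehicle at 36 h than at 24 h, where 3.99% of all genes were, with a median of 1.09, and with 40 mpk 51 were, where 3.93% were. With 80 mpk the change was 1.84 ± 0.23 for Mybl2 and 1.30 ± 0.16 for Cdk1. Cdkn3 (0.03 ± 0.20, adjusted p = 0.982), Bub3 (0.62 ± 0.20, adjusted p = 0.0544), Pttg1, Birc5 and Kif20a were not called. Directly against 40 mpk at 36 h, 80 mpk was lower for 6 genes, where 0.543% of all genes were. These were Cdkn3 (-0.77 ± 0.15), Cdc25b (-0.66 ± 0.14), Ube2c (-0.55 ± 0.13), Aurka (-0.50 ± 0.13), the midzone protein Prc1 (-0.57 ± 0.15) and Cdca2, a mitotic phosphatase subunit (-0.64 ± 0.15). The count was 0 without 40 mpk replicate 1, 80 mpk replicate 1 or the muscle-rich arrays, 3 without 40 mpk replicate 3, 1 without 80 mpk replicate 4 and 29 without 80 mpk replicate 2.

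Across the genes, values at 12 h and at 36 h after a single dose were negatively related. With 80 mpk, the differences at 12 h and at 36 h, which share no arrays, had a Pearson r of -0.527 and a Spearman rho of -0.460 across the 58 genes, and of -0.585 and -0.510 without the 3 dim genes. With 40 mpk the values were -0.313 and -0.169. Between 80 mpk at 12 h and multiple doses of 80 mpk at 36 h the relation was weak, with an r of -0.088 and a rho of -0.233. Genes are not independent replicates, and the values describe these groups only. Cdkn3, Ccnb2, Kif2c and Cdc25c, at 0.60, 0.45, 0.40 and 0.36 at 12 h, were the 4 lowest at 36 h. Kif2c and Cdc25c were not called at 12 h, and for each of the 4 genes the vehicle mean at 12 h was the lowest of all vehicle groups. Mybl2 was lowest at 12 h and among the highest at 36 h.

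**Figure D4:**
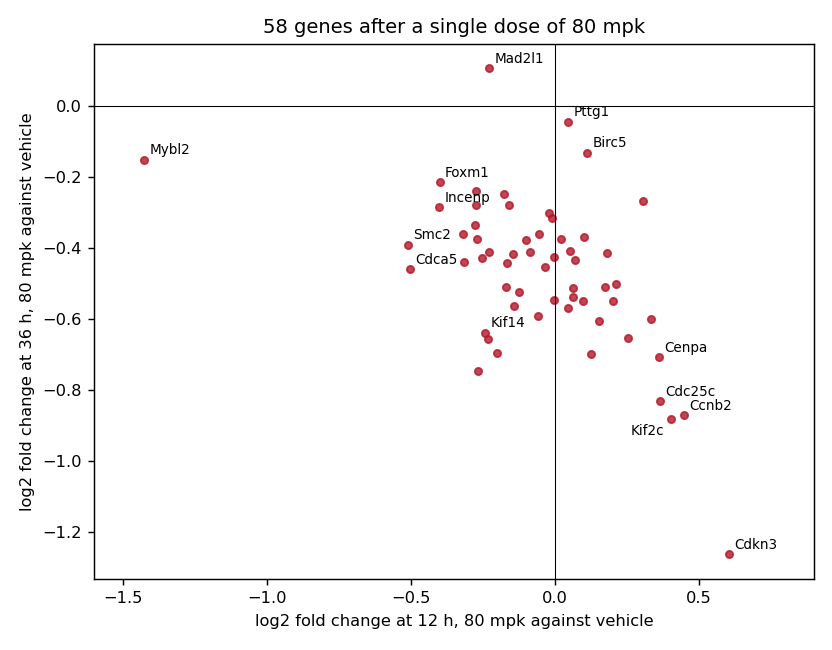
Log2 fold change against vehicle at 12 h (x axis) and at 36 h (y axis) after 80 mpk, with 1 point per gene. Mybl2 lies at -1.42 and -0.15, and Cdkn3 at 0.60 and -1.26.

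Multiple doses of 80 mpk gave the lowest group mean of the series over the 58 genes at 36 h. Of 58 genes 57 were lower than vehicle of the same schedule, where 17.7% of all genes were, and 0 were higher, where 19.8% of all genes were. The median difference was -2.22, which left the median gene at 21.5% of vehicle. The groups did not overlap for 56 genes, against 12.9% of all genes on the lower side, and Pttg1 (-0.07, adjusted p = 0.701) was the gene not called. Cdk1 was at 20.1, 21.9, 20.9, 22.2 and 20.8 with vehicle and 3.40, 5.05, 4.17 and 4.38 with 80 mpk, 5.03-fold lower (-2.33 ± 0.10, adjusted p = 1.87e-26). Foxm1 was at 11.7, 8.38, 9.60, 10.5 and 9.62 with vehicle and at 1.11, 2.59, 2.47 and 2.27 with 80 mpk (-2.30 ± 0.15). Mybl2 was at 0.764, 0.591, 0.839, 0.797 and 0.753 with vehicle and at 0.0992, 0.183, 0.231 and 0.249 with 80 mpk (-2.05 ± 0.15). Neither activator overlapped with vehicle here, while both overlapped with it at 36 h after the single dose.

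Checkpoint, exit, kinetochore and passenger genes were lower as well. Bub1 was at 3.19, 4.16, 3.42, 4.42 and 3.85 with vehicle and at 0.621, 0.825, 0.583 and 0.724 with 80 mpk (-2.47 ± 0.11). Cdc20 was at 12.5, 13.4, 14.2, 14.6 and 13.7 with vehicle and at 1.88, 3.49, 2.77 and 2.90 with 80 mpk (-2.34 ± 0.13). For both genes the treated arrays lay below every vehicle array. Ndc80 was at 1.27, 1.55, 1.23, 1.57 and 1.38 with vehicle and at 0.219, 0.329, 0.180 and 0.322 with 80 mpk (-2.45 ± 0.14). Aurkb was at 2.13, 2.82, 2.45, 2.93 and 2.48 with vehicle and at 0.365, 0.693, 0.595 and 0.665 with 80 mpk (-2.18 ± 0.14). Neither gene overlapped with vehicle. Kif11 was at 2.23, 3.05, 2.42, 2.63 and 2.46 with vehicle and at 0.292, 0.592, 0.416 and 0.531 with 80 mpk (-2.52 ± 0.14). Tpx2 was at 8.17, 8.70, 8.37, 9.45 and 8.65 with vehicle and at 1.19, 1.90, 1.94 and 1.80 with 80 mpk (-2.37 ± 0.12). Top2a was at 8.37, 10.04, 8.05, 10.6 and 8.65 with vehicle and at 1.24, 2.16, 1.84 and 1.80 with 80 mpk (-2.40 ± 0.13). Treated replicate 1 was the lowest of the 4 for Kif11, Tpx2 and Top2a. Kif14, a kinesin of cytokinesis, had the largest difference (-2.58 ± 0.20), and Bub3 (-1.21 ± 0.13), Birc5 (-1.28 ± 0.19), Racgap1 (-1.47 ± 0.10) and Kif20a (-0.53 ± 0.12, and -0.30 with an adjusted p of 0.142 without muscle-rich arrays) had small differences among those called. Without treated replicate 1 the count stayed at 57 with a median of -2.04, and without the muscle-rich arrays 56 genes were lower with a median of -2.11. Macrophage markers were higher for 11 of 13 (means of 2.47 to 2.96 against 0.77 to 1.58) and fibroblast markers for 10 of 12 (3.16 to 3.82 against 1.61 to 2.34), and their part was not tested.

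Each schedule was compared with its own vehicle, and the effect of multiple doses at 36 h was lower than that of the single dose for 56 genes (median -1.72), where 5.36% of all genes were. The exceptions were Pttg1 (-0.02) and Kif20a (-0.25). The schedules may also differ in the time since the last dose, which cannot be told apart from the number of doses. Between the vehicle groups of the schedules no member passed the test at 24 h (0 called by limma and 14 at an unadjusted p under 0.05, where 5.51% of all genes were called, and 9 called with array weights) or at 36 h (0 called and 3 at an unadjusted p under 0.05, where 0.0278% were called, and 1 called with array weights). The single array of 80 mpk in multiple doses at 24 h was below all 4 vehicle arrays of its schedule for all 58 genes, as it was for 27.7% of all genes. Its median difference from the vehicle mean was -1.79, and 54 genes were at least 2-fold lower, as were 2.59% of all genes. Cdk1 stood at 5.12 on it and at 20.5, 18.4, 20.6 and 21.6 with vehicle, and Bub1 at 0.823 on it and at 3.51, 3.16, 3.19 and 3.61 with vehicle. It has no replicate, and no test was made.

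Other genes of the same machinery were set beside the 58. Their lists were written by function, with earlier results of these data known. In each list the 2 genes with the smallest adjusted p are named. Of all genes, 15.3% were lower and 17.6% higher with 80 mpk at 24 h. With 80 mpk at 24 h, 26 of 30 other kinetochore and centromere genes were lower (median -1.29), among them Cenpm (-1.91 ± 0.13) and Cenpw (-1.43 ± 0.10), and 28 of 30 other spindle and centrosome genes (median -1.33), among them the centriole kinase Plk4 (-1.74 ± 0.10) and gamma-tubulin Tubg1 (-1.13 ± 0.08). Of 15 other chromosome genes 13 were lower (median -0.60), among them shugoshin Sgo1 (-1.63 ± 0.12), which protects cohesion, and the cohesin acetyltransferase Esco2 (-2.13 ± 0.18). All 33 replication genes were lower (median -1.39), among them the helicase factors Cdc45 (-1.96 ± 0.13) and Mcm10 (-1.93 ± 0.13). Of 17 genes of the APC/C 9 were lower and 2 higher (median -0.24), with the inhibitor Fbxo5 (Emi1) at -1.54 ± 0.12 and the E2 enzyme Ube2s at -0.69 ± 0.07, and the subunits Anapc2 (0.26 ± 0.07) and Anapc16 (0.24 ± 0.07) higher. The share of APC/C genes that were higher was not above that of all genes.

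Among 13 genes of MuvB, the pocket proteins and E2F factors, 10 were lower and 1 higher at 24 h with 80 mpk (median -0.43). In that comparison 15.3% of all genes were lower and 17.6% higher. The pocket protein p107 (Rbl1) was lower, at -1.03 ± 0.09 and the MuvB subunit Lin9 at -0.99 ± 0.14, while p130 (Rbl2), the pocket protein of resting cells, was higher by 0.49 ± 0.08. With multiple doses at 36 h Rbl2 was higher by 0.54 ± 0.08 and Rb1 by 0.26 ± 0.09, and 11 of the 13 were lower. There 17.7% of all genes were lower and 19.8% higher. Rbl2 was also higher at 36 h after a single dose of 80 mpk (0.30 ± 0.10). Of 19 kinesins and light chains of transport outside mitosis, 9 were higher and 3 lower at 24 h (median 0.26), with the smallest adjusted p for Kif1b (0.65 ± 0.09) and Kif3c (0.56 ± 0.09). Those that fell were Kif2a (-0.40), which also depolymerises spindle microtubules, Kif21a (-0.51) and Kif5b (-0.35). These 3 of 19 were near the 15.3% of all genes that were lower. At 36 h after a single dose of 80 mpk, 19 of 30 other spindle genes, 12 of 30 other kinetochore genes and 3 of 33 replication genes were lower, where 5.64% of all genes were, so the replication genes were near that share. With 40 mpk at 36 h limma called 0 genes of these 3 lists (1, 1 and 2 had an unadjusted p under 0.05), where 0.39% of all genes were lower. These counts are descriptions, and the lists were not tested against each other.

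**Figure D5:**
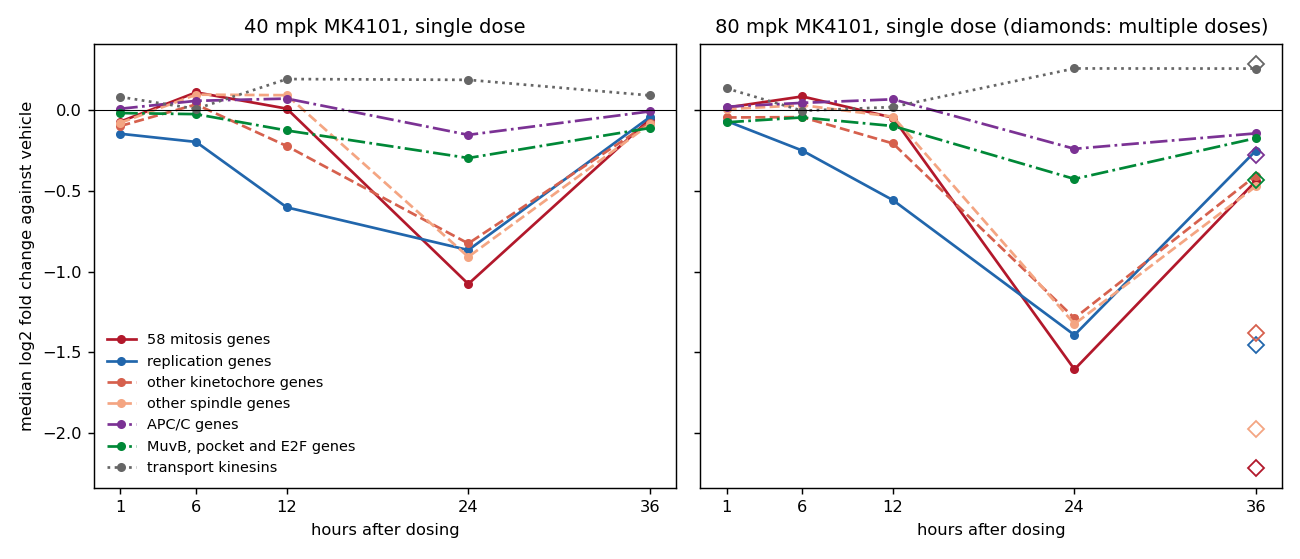
Median log2 fold change against vehicle of the 58 genes and of 6 other gene lists (lines) by hours after a single dose of 40 mpk (left) or 80 mpk (right), with multiple doses at 36 h as diamonds. With 80 mpk the replication genes are at -0.56 at 12 h, when the 58 genes are at -0.05.

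Vehicle tumours were also compared over time. A moderated F test over the 5 vehicle groups of the single-dose schedule called 5 of 58 genes, where 6.28% of all genes were called. The share of the 58 genes was thus near that of all genes. These were Aurkb, Bub1, Kif20b, Anln and Kif18a. Bub1 had group means of 3.75, 3.32, 2.98, 3.99 and 4.12 at 1, 6, 12, 24 and 36 h, and Aurkb had 2.94, 2.31, 2.11, 3.01 and 2.91, so that both were lowest at 12 h. The count was 0 without replicate 3 at 12 h, 1 without replicate 3 at 36 h, 8 without replicate 2 at 12 h, and 2 or 3 without replicate 1, 2 or 5 at 6 h, replicate 4 at 12 h, replicate 2, 3, 4 or 5 at 24 h or replicate 1 at 36 h.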

How the data were processed

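Biotin-labelled cRNA of 75 samples was hybridised to 1 array each. The authors deposited 1 linear intensity for each probe set and array, and RMA is named, without settings, per the submitters' processing notes. All were above 0 (0.0166 to 99.9) with a mean of 1 on every array, so log2 was taken, without a pseudocount. The authors' genome build is not given in the sources used here. The number of arrays limits the precision.

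Of 43681 probe sets, 30342 carried 1 symbol and the others were left out. Symbols were updated through RefSeq, by accession for 15257, and 53 were kept as given. The probe set with the highest mean represented a gene (27 of the 58 genes had several), which left 21552 genes. Cdk1 was listed as Cdc2a and Kif20b as Mphosph1.

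All arrays were fitted in limma 3.58.1 (R 4.3.3) with 1 mean per group, 56 residual and 3.37 prior degrees of freedom, and the Benjamini-Hochberg threshold was 0.05. On data simulated for 80 mpk against vehicle at 24 h (21552 genes, 50 changed at each size), the fit recovered 94% of genes changed by -1.5 or -1 on the log2 scale, 74% at -0.5 and 98% at 1, and 7.69% of its calls were false. Any of the genes could be named. Array values are given for key regulators and 1 or 2 genes per role, and otherwise the smallest and largest adjusted p per role. Members, lists and alternatives were chosen with earlier results of these data known. Alternatives were the mean of all probe sets, a filter on dim genes (11792 left), a second quantile normalization, a trended robust prior, array weights, replicate number as a block, marker covariates, only the groups compared, and leaving out muscle-rich arrays (52 left) or each array (74 fits). Promoters came from RefSeq (GRCm38.p6). Tables and plots were made in Python 3.11.15 (pandas 2.3.3, numpy 2.4.6, matplotlib 3.10.9, scipy 1.17.1).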

Additional observations from a re-analysis of the deposited data

Results flagged for a closer look

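Within groups of 4 or 5 arrays, 154 sets of values of the 58-gene mean and of 10 key genes were searched for an array far from the others. There were 7, where chance at 1 in 20 gives 7.7. At 24 h with 80 mpk, replicate 3 was high for Bub1 (1.438 against 0.9176 to 0.9908) and Tpx2 (3.754 against 2.297 to 2.54). At 24 h with vehicle, replicate 1 was low for Mybl2 (0.5104 against 0.6265 to 0.6598) and for the mean log2 over the 58 genes (1.5465 against 1.687 to 1.738). Single values stood apart for Mybl2 at 1 h with 80 mpk (replicate 2, 0.8193 against 0.6192 to 0.676), for Cdk1 at 6 h with 40 mpk (replicate 5, 22.42 against 20.64 to 20.93) and for Kif11 at 12 h with vehicle (replicate 3, 1.706 against 2.203 to 2.276).

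Effects that differed between times or schedules by a test of the difference were also marked. They were 54 genes between 24 and 12 h with 80 mpk and 51 with 40 mpk, 53 between 36 and 24 h with 80 mpk and 51 with 40 mpk, and 56 between multiple and single doses at 36 h. Of all genes, 8.02% with 80 mpk and 2.53% with 40 mpk were called lower at 24 than at 12 h. At 36 against 24 h, 3.99% and 3.93% were called higher, and 5.36% were called lower with multiple than with single doses.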

How the results depend on the processing

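The counts of lower genes at 24 h (55 with 40 mpk and 56 with 80 mpk) and with multiple doses at 36 h (57) stayed within 54 to 57 under every alternative and with each array left out, the counts of differences from 24 h to 12 or 36 h and between schedules stayed within 42 to 56, and no called gene changed direction. Replicate numbers did not pair the samples: deviations from group means had a mean r of -0.047 over 59 same-numbered pairs and 0.016 over 210 others. Under the replicate block 509 of 514 calls over all comparisons were kept and 3 gained. It gave 2 calls for 40 mpk at 6 h and 1 for the 12 h against 6 h effect, and 55 at 24 h with 80 mpk.

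Other counts moved, and the cause was not tested except that fitting only the groups compared uses fewer arrays. For 80 mpk at 36 h (36), they were 22 with covariates, 1 with only the groups compared and 16 without muscle-rich arrays. For 80 against 40 mpk at 24 h (29), they were 0 with only the groups compared and 2 without muscle-rich arrays, and at 36 h (6) 15 without dim genes, 21 with covariates, and 0 with only the groups compared or without muscle-rich arrays. For 40 mpk at 12 h (3) and 80 mpk at 12 h (6), array weights gave 10 and 10, and covariates gave 6 for 40 mpk. For 40 mpk at 6 h (1), 2 genes were called without dim genes, with array weights, with covariates and without muscle-rich arrays. For 80 mpk at 6 h (0), 1 was called without dim genes and 3 with array weights. For 40 mpk at 36 h (0), array weights gave 1. For 80 against 40 mpk at 12 h (0), array weights gave 7 and covariates 1. For the effect at 12 h against 6 h (0), 1 was called without dim genes, with array weights and with covariates. Between vehicles at 24 h (0), the mean of probe sets gave 2, the dim filter 1, quantile normalization 1, array weights 9 and only the groups compared 7, and at 36 h (0) the mean of probe sets and array weights gave 1 each. Across vehicle times (5), the mean of probe sets and the dim filter gave 9, array weights 12 and covariates 1.

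With 1 array left out, counts ranged from 11 to 44 for 80 mpk at 36 h, from 8 to 42 and from 0 to 29 for 80 against 40 mpk at 24 and 36 h, from 1 to 2 for 40 mpk at 6 h, and from 0 to 8 across vehicle times. They ranged from 0 to 1 for 80 mpk at 6 h, the effect at 12 h against 6 h, and the vehicles at 24 h and at 36 h, and from 4 to 7 for 80 mpk at 12 h.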

Other observations

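Of the 58 genes 27 had more than 1 probe set, and the 36 further probe sets were not used above. With 80 mpk at 24 h 35 of these 36 were below vehicle and 29 were at least 2-fold lower, and with multiple doses at 36 h 35 were lower and 30 at least 2-fold lower. Both further probe sets of Cenpk were dim, with mean intensities of 0.0334 and 0.0342, and stayed near vehicle at 24 h (-0.00 and 0.08). The second probe set of Mybl2 was lower, at -1.01 at 24 h and -1.06 with multiple doses, against -1.99 and -2.05 for the brighter one. Anln differed by probe set with multiple doses, at -1.44 for the dimmer and -2.52 for the brighter one. Cdk1 differed more, at -0.95 for the dimmer (mean intensity 0.265) and -2.33 for the brighter one, and at -1.26 and -1.71 at 24 h. With multiple doses Kif14 was at -0.40 and -2.58, and Kif18a at -0.57 and -2.38, again with the dimmer one first.

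The 10 genes without a CHR in the promoter window were Birc5, Cenpe, Cenpk, Kif18a, Mad2l1, Mybl2, Ncaph, Nuf2, Nusap1 and Pttg1. They include Mybl2, the lowest gene at 12 h with 80 mpk, and Mad2l1, the highest at 36 h, where it was not called. Cenpe and Kif18a, also without the element there, were among the genes called lower at 36 h (-0.66 and -0.70). Smc2 and Cdca5, the next lowest at 12 h after Mybl2, hold a CHR.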
